A study of Mus musculus with 19 samples.

Results

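The genes described here encode the elastic fibre, the matrix structure that lets arteries recoil, and the lysyl oxidases that crosslink it. Of 10 genes listed, 8 were measured, out of 22180 genes on the arrays with an unambiguous probe set: Eln, Fbln5, Lox, Loxl1, Emilin1, Ltbp4, Mfap4 and Mfap5. Each was read from its 1 probe set annotated with that symbol alone. Fbn1 (fibrillin-1, the main microfibril protein) had no probe set under its symbol, and the 2 probe sets for Loxl2 carried a second symbol, so neither gene was analysed here.

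RNA was hybridised to 19 Affymetrix arrays, 1 per mouse sample, all of mixed C57Bl/6 and 129X1/SvJ background. The 7 tumors were angiosarcomas, malignant tumors of endothelial lineage, from aP2-Cre/+;DicerFlox/- animals. In these mice Cre recombinase is driven by the aP2 (Fabp4) promoter, best known from adipocytes, and acts on 1 floxed Dicer allele over 1 null allele. The 4 aortas, 4 quadriceps femoris muscles (thigh) and 4 sternocleidomastoid muscles (neck) were wild type. In every tumor comparison the tissue and the genotype therefore cannot be told apart. The sources used here give neither the age nor the identity of the animals. With that limit, p-values measure only the spread between these samples, which may be partly technical.

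Elastic fibres form when soluble elastin is laid onto a scaffold of fibrillin microfibrils and crosslinked. Fibulin-5 and LTBP-4 guide elastin onto the scaffold, EMILIN-1 and the MFAP proteins associate with microfibrils or the elastin surface, and LOX and LOXL1 oxidise lysine residues so that chains become joined. LOX also crosslinks fibrillar collagen. In the aortic wall, smooth muscle cells make most of the elastin, and most of it is deposited during development.

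Markers of each labelled tissue were present. Mean log2 intensity over 8 endothelial markers was 9.74 to 10.8 in tumors and 8.40 to 8.56 in aortas, over 8 smooth muscle markers 9.77 to 10.3 in aortas and 8.28 to 9.67 in tumors, and over 8 skeletal muscle markers 12.3 to 12.5 in both muscles. Other tissue was present as well. The aortas carried 7 heart muscle markers at 9.50 to 10.2 and 6 brown adipocyte markers at 10.6 to 11.4. In tumors these lists lay at 5.31 to 5.84 and 4.85 to 8.56. The skeletal muscle list reached 10.6 in tumor 2. Its mean was 7.54 and 7.55 in aortas 1 and 3, against 5.47 and 5.76 in aortas 2 and 4. Between tumor and aorta, 8 of 8 endothelial markers were higher in tumors, 7 of 7 heart, 6 of 6 brown adipocyte, 5 of 6 general adipocyte and 4 of 5 mesothelial markers were lower, 3 of 10 fibroblast markers were higher and 2 lower, 1 of 7 tendon markers was higher, and 0 of 8 skeletal muscle markers passed by limma. In whole tissue, fewer cells of a type and less RNA per cell cannot be told apart. Replicate numbers name the samples and carry no order.

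**Figure D1:**
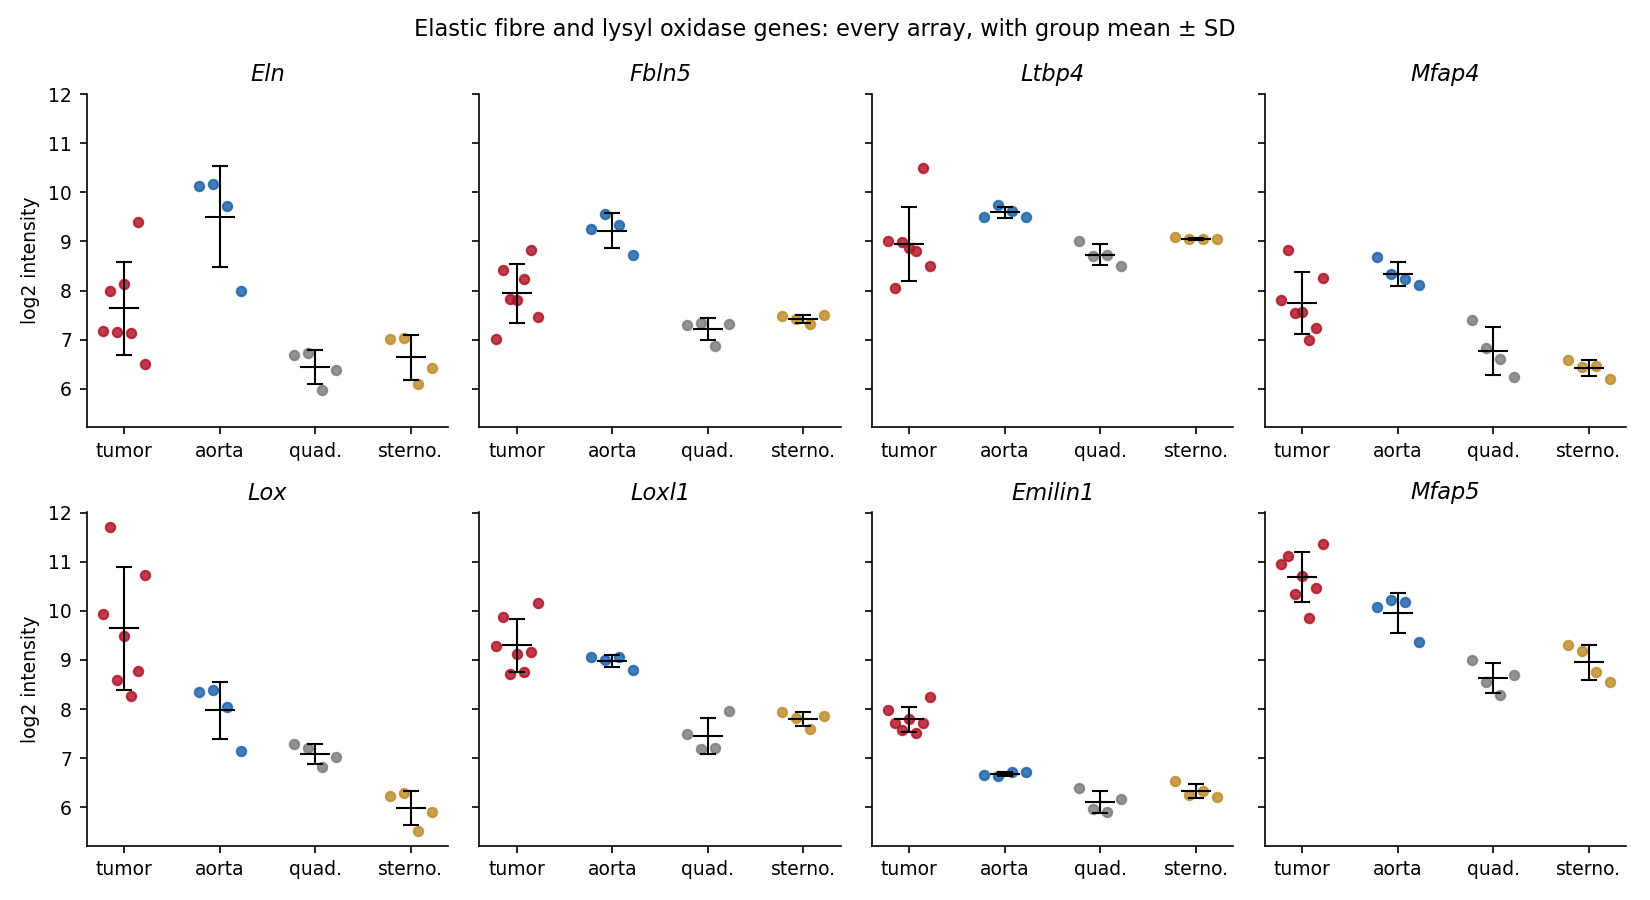
Log2 intensity (vertical axis) of each of the 8 measured genes on every array, by tissue (quad., quadriceps femoris; sterno., sternocleidomastoid). Points are arrays and black bars are group means ± SD. Eln and Fbln5 are highest in the aortas, Lox, Emilin1 and Mfap5 are highest in the tumors, and 1 aorta (aorta 4) lies apart from the other 3 for Eln at 7.98.

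Between tumors and aortas some elastic fibre genes were higher and some lower. Elastin and fibulin-5 were lower in tumors, whereas lysyl oxidase, EMILIN-1 and MFAP5 were higher. Of the 8 genes, 3 were higher (18.6% of all genes tested were) and 2 were lower (17.5% of all genes), by limma with Benjamini-Hochberg adjustment over 22180 genes at 0.05. The count of higher genes fell to 1 without aorta 4. These counts of 8 are too small to set apart from that background, and the median difference of the 8 genes was -0.14 log2 units, against -0.02 over all genes. Loxl1, Ltbp4 and Mfap4 did not pass.

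Eln encodes tropoelastin, the soluble elastin monomer. Its log2 intensity was 10.1, 10.2, 9.73 and 7.98 in aortas 1 to 4. In tumors it ran from 6.49 through a median of 7.17 to 9.39, the last in tumor 6. Quadriceps femoris samples lay at 5.97 to 6.73 and sternocleidomastoid samples at 6.10 to 7.03. Thus 5 of 7 tumors lay below every aorta, and the other 2 (tumors 4 and 6) lay above aorta 4 but below the other 3 aortas. The mean in tumors was 3.65-fold lower than in aortas (log2 difference -1.87 ± 0.45, SE; adjusted p = 0.00289). Without aorta 4 the difference was -2.37 (adjusted p = 0.000301) and without tumor 6 it was -2.16 (adjusted p = 0.00019), while leaving out aortas 1 and 3 together ended the call (-1.44, adjusted p = 0.0862). Of 8 smooth muscle markers, 6 were also lower in tumors and 0 higher. Their part in the elastin difference was not tested.

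Fbln5 encodes fibulin-5, which binds both elastin and LOXL1. It measured 9.25, 9.56, 9.33 and 8.72 in aortas 1 to 4 and 7.02 to 8.83 in tumors, with a tumor median of 7.82. Every tumor but tumor 6 lay below all 4 aortas, and tumor 6 lay above aorta 4 alone. The tumor mean was 2.42-fold lower (-1.27 ± 0.25; adjusted p = 0.000393), and the call held without each array in turn (-1.44 to -1.12).

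Lox encodes lysyl oxidase. Its values were 8.34, 8.39, 8.05 and 7.14 in aortas 1 to 4. In tumors they ran from 8.26 in tumor 5 through a median of 9.49 to 11.7 in tumor 2, and only tumor 5 fell within the range of the aortas. The tumor mean was 3.17-fold higher (1.66 ± 0.48; adjusted p = 0.0101). Without aorta 4, the lowest aorta, the difference was 1.38 and missed the threshold (adjusted p = 0.0514). Its spread among tumors (SD 1.25, n = 7) exceeded that of 98.9% of all genes.

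Loxl1 encodes a lysyl oxidase paralog that acts on elastin, and it did not pass. Tumors spanned 8.72 to 10.2 with a median of 9.15, and aortas spanned 8.79 to 9.06, so 5 tumors lay above all aortas and 2 (tumors 3 and 5) below them. The difference was 0.32 ± 0.22 with an interval (95%) of -0.15 to 0.79 log2 units (adjusted p = 0.296), and whether it differs from that of Lox was not tested. The unequal change of Lox and elastin was visible array by array. Log2 Lox minus log2 Eln, which depends on the 2 probe sets and has meaning only between arrays, was -1.80 to -0.85 in the aortas and -0.61 in tumor 6, but 1.12 to 4.24 in the other tumors. The 2 muscles differed in it as well, at 0.48 to 0.84 in quadriceps femoris and -0.78 to -0.53 in sternocleidomastoid. Tumor 6 lay within the sternocleidomastoid range. That pair of genes was set side by side after its values were seen.

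Emilin1 encodes EMILIN-1, a glycoprotein at the interface of elastin and microfibrils that also restrains TGF-beta maturation. It measured 6.64 to 6.72 in aortas and 7.51 to 8.25 in tumors, with no overlap. The tumor mean was 2.15-fold higher (1.11 ± 0.12; adjusted p = 1.06e-06), and it was the 1 member of 8 whose tumors all lay above all aortas, as did 12.2% of all genes. Mfap5 encodes the microfibril glycoprotein MAGP-2. It measured 9.85 to 11.4 in tumors and 10.1, 10.2, 10.2 and 9.36 in aortas 1 to 4, with tumor 5 alone inside the aorta range. Its difference (0.73 ± 0.24; adjusted p = 0.025) became 0.53 without aorta 4 (adjusted p = 0.127), and the call was also lost with only tumors and aortas in the fit (adjusted p = 0.0577), with housekeeping centring (0.54, adjusted p = 0.058), when aortas 1 and 3 were left out (0.90, adjusted p = 0.0513) and when the tumors were limited to 5 to 7 (0.60, adjusted p = 0.17).

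For Ltbp4 and Mfap4 the call depended on the tumors included and on the scaling. Ltbp4 encodes a latent TGF-beta binding protein needed for elastin deposition. It measured 9.50 to 9.74 in aortas and 8.05 to 9.0 in 6 tumors, all below every aorta, but 10.5 in tumor 6. The difference was -0.64 ± 0.28 (adjusted p = 0.0873) with all tumors and -0.89 (adjusted p = 0.000133) without tumor 6. Mfap4 encodes a fibrinogen-related glycoprotein that binds elastin and fibrillin. It measured 8.12 to 8.69 in aortas and 6.99 to 8.82 in tumors, where tumor 2 alone lay above all aortas. Its difference was -0.60 ± 0.27 (adjusted p = 0.0956), or -0.78 without tumor 2 (adjusted p = 0.0096). With all tumors kept, both genes passed under housekeeping centring (Ltbp4 -0.82, adjusted p = 0.0385; Mfap4 -0.78, adjusted p = 0.0188). Ltbp4 also passed with tumors 1 to 4 alone (-0.87, adjusted p = 0.000514), and Mfap4 with tumors 5 to 7 alone (-0.85, adjusted p = 0.0331) or without tumors 2 and 5 (-0.66, adjusted p = 0.0195).

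**Figure D2:**
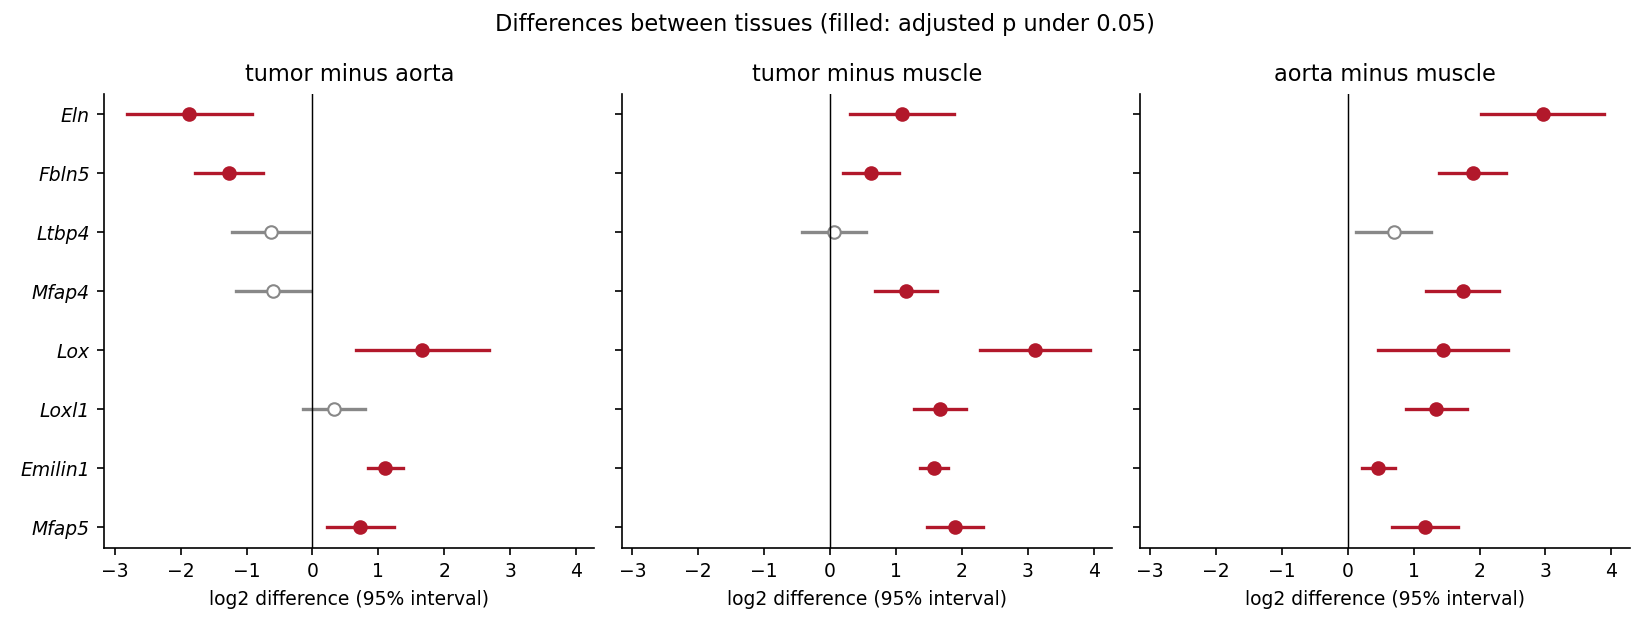
Log2 difference (horizontal axis) of each gene in 3 comparisons, with its 95% interval from the fit to all 19 arrays. Filled red points have an adjusted p under 0.05 and open grey points do not. Against aorta the points fall on both sides of 0, from -1.87 for Eln to 1.66 for Lox. Against muscle all 8 lie above 0 in tumor and in aorta. Of these, 7 of 8 are filled in each comparison, with Ltbp4 open at 0.06 in tumor and 0.70 in aorta.

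Against skeletal muscle nearly the whole group was higher in tumors. The increase was seen in 7 of 8 genes (25.3% of all genes were higher) and 0 of 8 were lower (25.7% of all genes were; 0 also at an unadjusted p under 0.05). The median difference was 1.36 log2 units, against -0.04 over all genes. Lox rose most, 8.62-fold (3.11 ± 0.40; adjusted p = 1.61e-06), followed by Mfap5 at 3.72-fold (1.90 ± 0.20; 1.42e-07), Loxl1 at 3.17-fold (1.67 ± 0.19; 2.57e-07) and Emilin1 at 2.97-fold (1.57 ± 0.10; 1.61e-10). For these 4 genes all 7 tumors lay above all 8 muscles, as was the case for 14.6% of all genes. Mfap4 rose 2.22-fold (1.15 ± 0.22; adjusted p = 0.000217).

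Elastin and fibulin-5 passed over muscle as well, with calls that depended on the setting. Elastin was 2.13-fold higher (1.09 ± 0.38; adjusted p = 0.0201) and fibulin-5 1.54-fold higher (0.62 ± 0.20; adjusted p = 0.0149). Set against sternocleidomastoid alone neither passed (adjusted p = 0.0832 and 0.0976), and neither did so with arrays centred on a housekeeping list (0.68, adjusted p = 0.104, and 0.21, adjusted p = 0.367). Eln also missed it with tumors 5 to 7 alone (1.13, adjusted p = 0.0979), and Fbln5 with tumors 1 to 4 alone (0.45, adjusted p = 0.0691) or without tumors 2 and 5 (0.47, adjusted p = 0.081). Ltbp4 differed from muscle by 0.06 ± 0.23, with an interval of -0.42 to 0.55 (adjusted p = 0.85), a sign that turned without tumor 6 (-0.19, adjusted p = 0.222). In tumors other than tumor 6 it measured 8.05 to 9.0, below every sternocleidomastoid sample (9.04 to 9.09). Of these tumors, 5 lay within the quadriceps femoris range of 8.49 to 9.0, and tumor 2 (8.05) lay below it.

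Aorta also stood above muscle for 7 of 8 genes (17% of all genes were higher) and below it for 0 of 8 (15.3% of all genes; 0 also at an unadjusted p under 0.05). This comparison shares its aorta samples and its muscle samples with those above. Eln led it at 7.78-fold (2.96 ± 0.44; adjusted p = 3.01e-05), then Fbln5 at 3.72-fold (1.90 ± 0.24; 4.2e-06) and Mfap4 at 3.36-fold (1.75 ± 0.26; 3.28e-05). Loxl1 (1.34 ± 0.22), Mfap5 (1.17 ± 0.24) and Emilin1 (0.47 ± 0.12) passed too. For all of these genes every aorta exceeded every muscle, as was the case for 14.6% of all genes. The Emilin1 call was lost against sternocleidomastoid alone (0.35, adjusted p = 0.0718) and with housekeeping centring (0.24, adjusted p = 0.102). Lox (1.44 ± 0.47; adjusted p = 0.0231) missed the threshold without aorta 1, 2 or 3 (1.31 to 1.42, adjusted p = 0.0538 to 0.0775) and against quadriceps femoris alone (0.90, adjusted p = 0.251). For Ltbp4 every aorta also exceeded every muscle, which makes 7 of 8 members without overlap. Its difference was 0.70 ± 0.27 (adjusted p = 0.0596) in the shared fit, whose spread includes the tumors, and the same difference passed with only aortas and muscles in the fit (adjusted p = 2.08e-05) or without tumor 2 (0.0323) or tumor 6 (0.000913).

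Between the 2 muscles no member passed. By limma 0 of 8 genes were higher in sternocleidomastoid (0.234% of all genes were) and 0 of 8 lower (0.198%), with 0 in either direction at an unadjusted p under 0.05. Lox came nearest, at 6.23, 6.30, 5.53 and 5.90 in sternocleidomastoid samples 1 to 4 and 7.28, 7.20, 6.81 and 7.03 in quadriceps femoris samples 1 to 4, with no overlap. Its difference was -1.09 ± 0.54 (adjusted p = 0.739). With only the 2 muscles in the fit, where the tumors no longer add to the spread, the same difference passed (adjusted p = 0.0189). Ltbp4 had no overlap either, with every sternocleidomastoid sample above every quadriceps femoris sample (0.33 ± 0.32, adjusted p = 0.951). Of all genes, 3.6% lay wholly lower in sternocleidomastoid and 4% wholly higher. The mean over 7 tendon and fascia markers was 6.23 to 8.09 in quadriceps femoris and 6.21 to 6.73 in sternocleidomastoid, ranges that overlap through quadriceps femoris 4, and 0 of 7 passed by limma (4 were lower in sternocleidomastoid at an unadjusted p under 0.05). The mean over 6 brown adipocyte markers was 6.77 to 8.34 in quadriceps femoris and 8.69 to 9.94 in sternocleidomastoid, without overlap, and 1 of 6 passed (Elovl3, a fatty acid elongase; 2.36 ± 0.51, adjusted p = 0.047). The part of these tissues in the Lox values was not tested.

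From highest to lowest mean, Eln and Fbln5 had the order aorta, tumor, sternocleidomastoid, quadriceps femoris. In both, aorta differed from tumor, but tumor did not differ from sternocleidomastoid (adjusted p = 0.0832 and 0.0976) nor the muscles from each other. Loxl1, Emilin1 and Mfap5 had the order tumor, aorta, sternocleidomastoid, quadriceps femoris. Among neighbours, tumor and aorta were not separated for Loxl1, and aorta and sternocleidomastoid were not separated for Emilin1 (adjusted p = 0.0718). Lox ran from tumor through aorta and quadriceps femoris to sternocleidomastoid, with aorta and quadriceps femoris not separated (adjusted p = 0.251). Mfap4 ran from aorta through tumor and quadriceps femoris to sternocleidomastoid, where tumor and quadriceps femoris were separated (adjusted p = 0.00577). For Ltbp4, ordered aorta, sternocleidomastoid, tumor and quadriceps femoris, no neighbours were separated (adjusted p = 0.243, 0.798 and 0.559).

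The members did not peak in the same tumor. Eln, Fbln5 and Ltbp4 were highest in tumor 6, at 9.39, 8.83 and 10.5. Lox and Mfap4 were highest in tumor 2 (11.7 and 8.82), and Loxl1, Emilin1 and Mfap5 in tumor 7 (10.2, 8.25 and 11.4). Tumor 7 had the lowest Eln of all tumors (6.49) and tumor 5 the lowest Lox, Emilin1, Mfap4 and Mfap5. Lox and Mfap4 had the same order over the tumors, except that tumors 3 and 6 changed places. Loxl1 and Mfap5 both ran from tumor 7 through tumor 2 to tumor 1, above the other tumors. Emilin1, also highest in tumor 7, had tumor 1 next. Among the genes highest in tumor 6, the order over the others was not shared. In tumor 2 Fbln5 was the second highest of the tumors and Ltbp4 the lowest, and in tumor 1 Fbln5 was the lowest and Ltbp4 the second highest. Across all genes, tumor 6 held the highest value among tumors in 15% of cases, tumor 2 in 17.7% and tumor 7 in 18.3%.

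Tissue marker means also differed among the tumors. The mean over 8 smooth muscle markers was 9.67 in tumor 6 and 8.28 to 8.66 in the other tumors. That over 10 fibroblast markers was highest in tumor 7 (10.5), and tumor 2 (9.67) lay near the tumor median of 9.69. The mean over 7 tendon and fascia markers was highest in tumor 2 (6.83, against 5.42 to 6.22 in the other tumors). The mean over 8 skeletal muscle markers was highest in tumor 2 (10.6) and tumor 7 (9.52), and lowest in tumor 5 (5.28) and tumor 6 (5.33). Tumors 2 and 7 also had the highest means over 7 macrophage markers (9.71 and 9.52, against 8.70 to 8.95 in the other tumors) and the lowest over 8 endothelial markers (9.94 and 9.74, against 10.15 to 10.82). The general adipocyte list was highest in tumor 5 (10.7) and tumor 6 (10.2). The part of these tissues in the gene values was not tested.

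**Figure D3:**
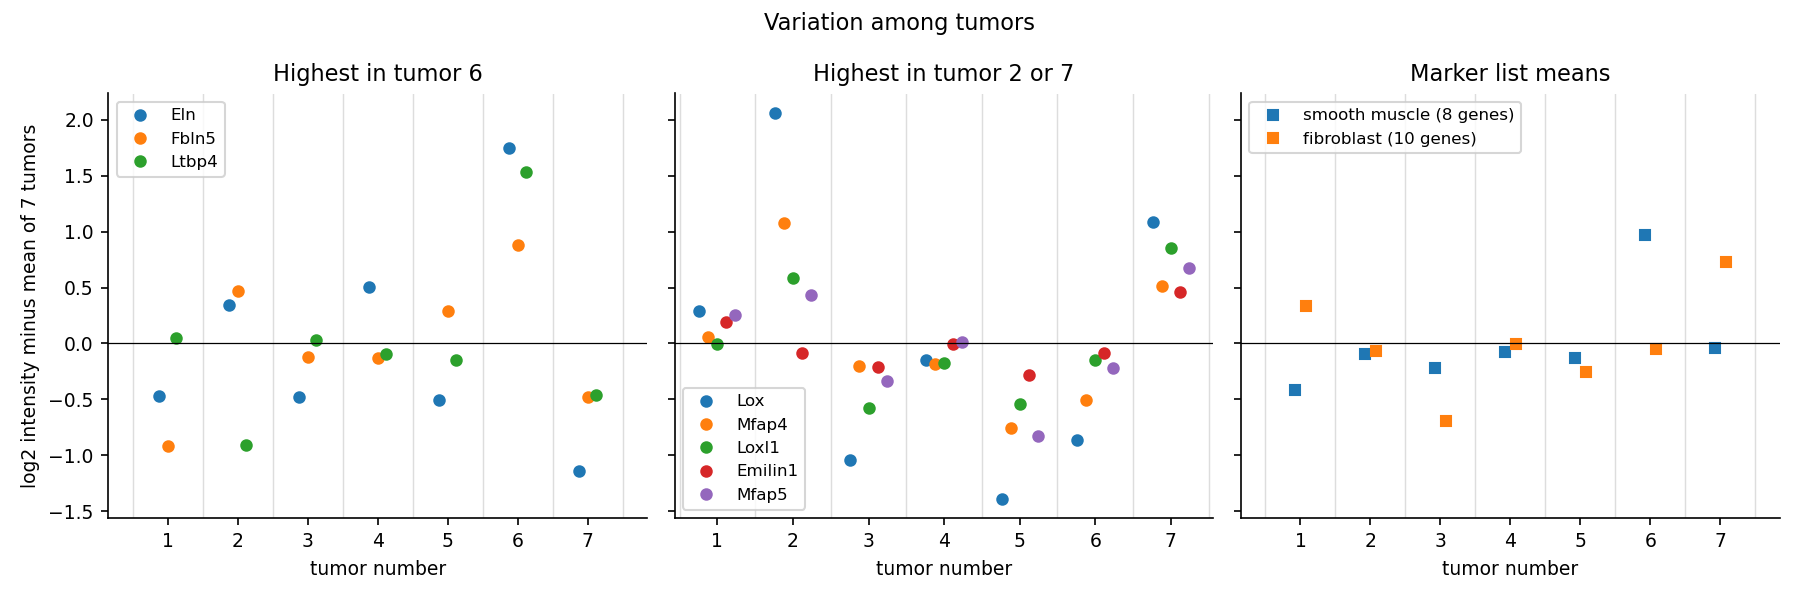
Each gene's log2 intensity minus its mean over the 7 tumors (vertical axis), by tumor number, with genes grouped by the tumor in which they are highest, and the same for 2 marker list means. Tumor numbers are names and carry no order. Eln, Fbln5, Ltbp4 and the smooth muscle markers peak in tumor 6, and the other 5 genes peak in tumor 2 or 7.

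Aorta 4 stood apart from the other aortas in these genes. It was the lowest aorta in 6 of 8 genes (Eln, Fbln5, Lox, Loxl1, Mfap4 and Mfap5), against 24.7% of all genes. It also had the lowest smooth muscle (9.77) and fibroblast (9.14) marker means and the highest brown adipocyte (11.4) and heart muscle (10.2) means of the 4 aortas. The part of its makeup in these values was not tested.

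Promoter sequence from RefSeq (GRCm38.p6) was at hand for Emilin1, Fbln5 and Ltbp4 among the measured genes. It is shown for Emilin1 and for 1 of the 2 annotated starts of Fbln5, the pair that moved in opposite directions between tumor and aorta. Both runs are the 250 bases before the start site, 5′ to 3′ on the gene's strand, at chr5:30913536-30913785 (plus strand) and chr12:101819120-101819369 (minus strand).
Emilin1: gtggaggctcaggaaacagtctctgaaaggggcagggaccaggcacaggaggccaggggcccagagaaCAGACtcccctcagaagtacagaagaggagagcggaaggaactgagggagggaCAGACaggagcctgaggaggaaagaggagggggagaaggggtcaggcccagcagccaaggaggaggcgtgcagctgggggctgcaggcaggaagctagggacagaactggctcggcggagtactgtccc
Fbln5: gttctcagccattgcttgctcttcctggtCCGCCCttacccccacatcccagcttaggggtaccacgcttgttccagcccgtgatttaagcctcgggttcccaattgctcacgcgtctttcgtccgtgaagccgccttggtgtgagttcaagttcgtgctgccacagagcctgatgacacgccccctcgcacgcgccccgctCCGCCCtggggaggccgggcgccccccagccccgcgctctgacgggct

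Capitals mark matches, on either strand, to the motifs searched. The GC box was spelled GGGCGG, the SMAD element CAGAC, the TATA box TATAAA, the AP-1 site TGACTCA and the E-box CACGTG, and the CArG box of serum response factor was searched as well. None of these motifs overlaps another in the 2 runs. Emilin1 held 2 CAGAC matches and no GC box, and this start of Fbln5 held 2 GC boxes (read on the other strand) and no CAGAC. The other annotated start of Fbln5 held 2 CAGAC matches and no GC box. Of 32851 promoter windows of the same length, 42.2% held the SMAD element, 32.7% a GC box, 12.4% a TATA box, 4.46% an AP-1 site, 6.02% an E-box and 1.47% a CArG box. A match describes these letters and is no evidence of binding.

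Other genes of elastic fibre assembly were measured in 25 of 26 cases. Against aorta, 12 rose in tumors and 6 fell, with a median of 0.48 log2 units (all genes -0.02, with 18.6% of them higher and 17.5% lower). The count of higher genes was 7 without aorta 4. The largest changes were in Thsd4 (ADAMTSL6, a microfibril-binding protein; -2.26 ± 0.19, adjusted p = 3.02e-08), Fbn2 (fibrillin-2, the fibrillin of developing tissue; 1.79 ± 0.28, adjusted p = 5.24e-05) and Bmp1 (the protease that removes the LOX propeptide; 1.76 ± 0.28, adjusted p = 6.18e-05). Mean Fbn2 was 6.38 ± 0.75 (SD, n = 7) in tumors, 4.59 ± 0.24 in aortas, and 4.87 ± 0.19 and 4.76 ± 0.14 in quadriceps femoris and sternocleidomastoid, values below every array's median in the 3 normal tissues, so dim signal limits that difference. Thsd4 measured 5.52 ± 0.44 in tumors and 7.77 ± 0.33 in aortas.

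Some paralogs of the measured genes, named here after their values were seen, are given for comparison. Others in the list, among them Loxl4, Emilin2, Emilin3, Ltbp1, Ltbp2 and Ltbp3, are not given. The paralogs named therefore do not stand for paralogs as a group. Mfap2, the paralog of Mfap5, rose by 0.71 ± 0.12 over aorta (adjusted p = 8.94e-05), and Fbln1, a fibulin also listed here as a fibroblast marker, fell by 0.99 ± 0.17 (adjusted p = 0.00014). Loxl3, a further lysyl oxidase, rose by 1.13 ± 0.37 (adjusted p = 0.0223), a call that was lost without aorta 3 (0.0525) or aorta 4 (0.0608) and with tumors 5 to 7 alone (0.75, adjusted p = 0.168). Against muscle, 17 of 25 assembly genes rose and 2 fell (25.3% and 25.7% of all genes did), with a median of 1.0, led by Postn (periostin, which promotes LOX activation; 3.82 ± 0.25, adjusted p = 1.86e-10), Fn1 (fibronectin; 2.52 ± 0.20, adjusted p = 2.85e-09) and Bmp1 (2.0 ± 0.23, adjusted p = 4.99e-07). Loxl3 rose by 1.96 ± 0.31 over muscle (adjusted p = 1.99e-05). Aorta exceeded muscle in 10 of 25 of these genes and fell below it in 1 (17% and 15.3% of all genes). Between the muscles 0 of 25 passed by limma in either direction (0.234% of all genes were higher and 0.198% lower). At an unadjusted p under 0.05, 1 was higher and 0 lower.

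Elastin-degrading proteases and their inhibitors were measured in 15 of 16 cases, and in tumors both kinds were among those that rose. Over aorta 7 rose and 1 fell (2 fell without tumor 5), against 18.6% and 17.5% of all genes, with a median of 0.38. Among the inhibitors only Timp1 rose over aorta, and the 1 gene that fell was the inhibitor Cst3 (-0.52 ± 0.12, adjusted p = 0.00211). Timp2 (-0.05 ± 0.13) and Timp3 (0.10 ± 0.13) did not pass over aorta, but both rose over muscle. Timp1, a metalloproteinase inhibitor, led with 3.75 ± 0.49 (adjusted p = 6.61e-06), ahead of Mmp14, a membrane-bound collagenase (3.05 ± 0.22, adjusted p = 6.35e-09), and Ctss, the elastolytic cathepsin S of macrophages (2.03 ± 0.31, adjusted p = 2.94e-05). Macrophage markers rose beside them, in 7 of 7 cases over aorta, with list means of 8.70 to 9.71 in tumors and 7.28 to 7.62 in aortas. Their part in these changes was not tested. Over muscle 11 rose and 1 fell (2 fell without quadriceps femoris 4), against 25.3% and 25.7% of all genes, with Timp1 at 4.60 ± 0.41 (adjusted p = 1.13e-08), Mmp14 at 3.57 ± 0.18 (adjusted p = 6.01e-12) and Ctss at 3.12 ± 0.25 (adjusted p = 3.24e-09). Between aorta and muscle 3 of 15 were higher in aorta (17% of all genes were, and 5 of 15 without quadriceps femoris 4 or without tumor 7). In the same comparison 0 of 15 were lower (15.3% of all genes were), also at an unadjusted p under 0.05. Between the muscles 0 of 15 passed by limma in either direction (0.234% of all genes were higher and 0.198% lower), also at an unadjusted p under 0.05.

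**Figure D4:**
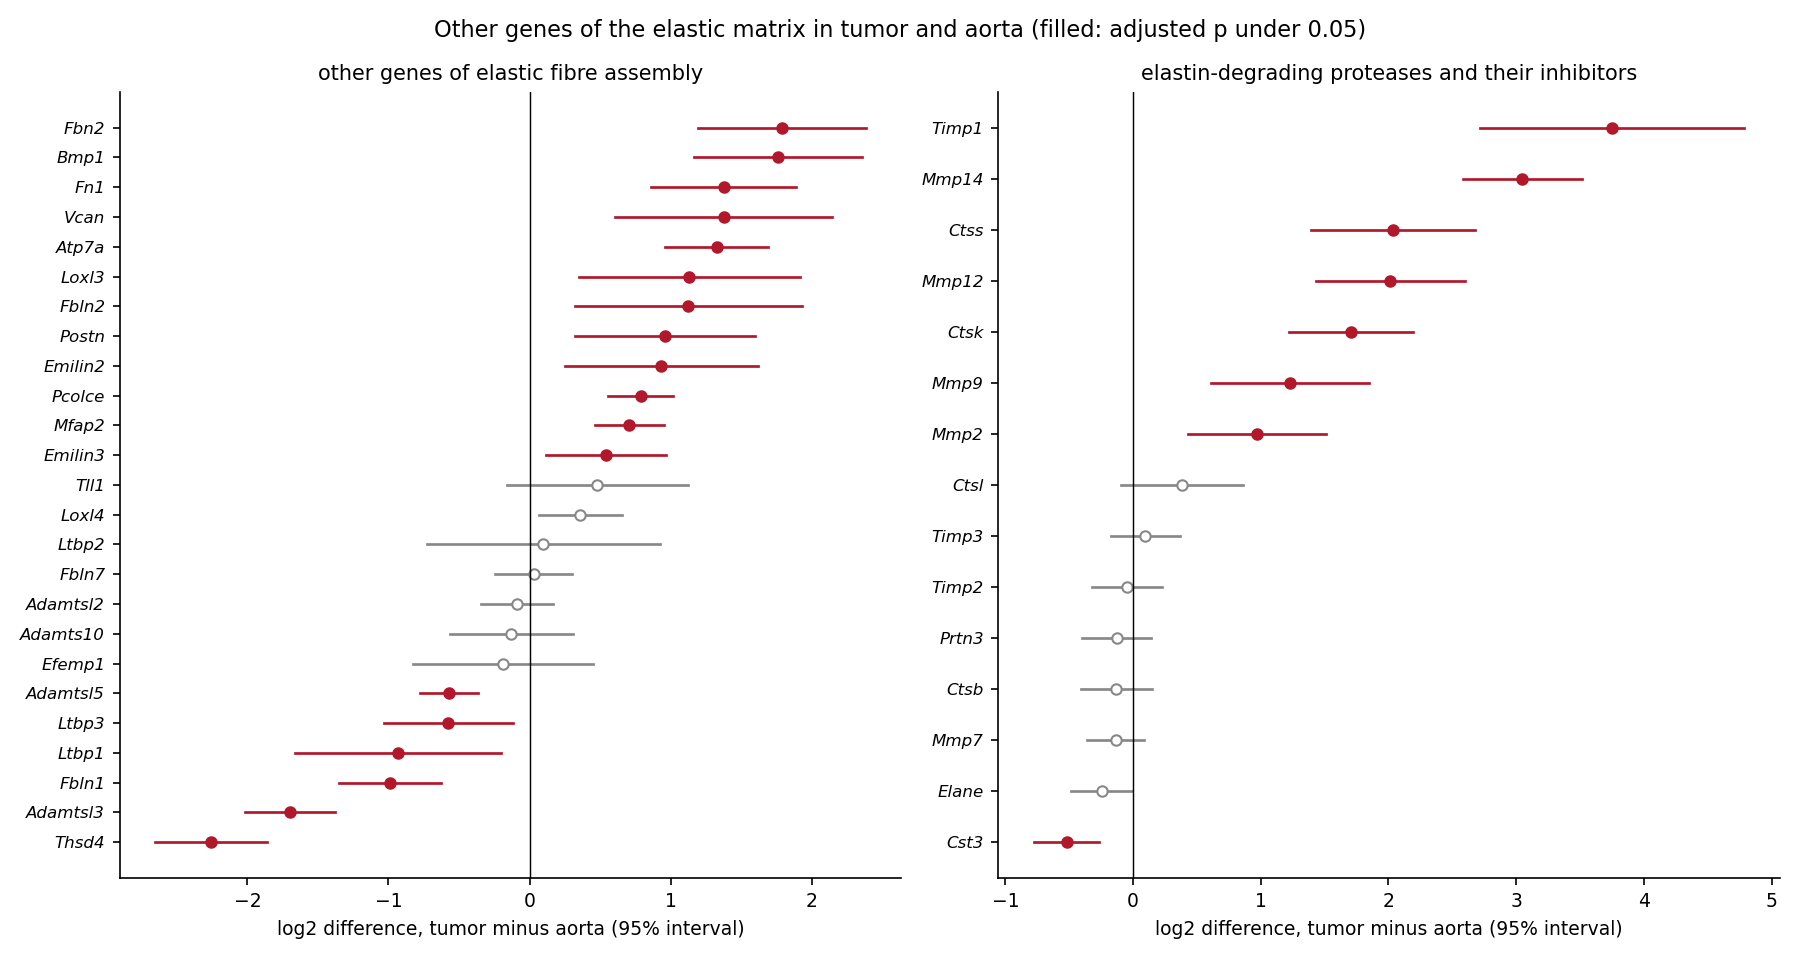
Log2 difference, tumor minus aorta (horizontal axis), with its 95% interval, for 25 other genes of elastic fibre assembly (left) and 15 elastin-degrading proteases and inhibitors (right). Filled red points have an adjusted p under 0.05. Thsd4 lies lowest at -2.26 and Timp1 highest at 3.75.

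The genes most like each member were taken as those with the smallest root mean square difference over the 19 arrays, after each gene's mean of 4 tissue means was subtracted. Lox lay nearest the type I collagen chains Col1a1 (0.57 log2 units) and Col1a2 (0.65), then Kdelr3 (0.65). Eln lay nearest Ptprz1 (0.58), Myocd (0.60) and Pi15 (0.60). Fbln5 lay nearest Slc12a7 (0.32), F3 and Itpr2 (0.39 each), and Mfap4 nearest Dock5 (0.37), Colec12 (0.39) and Pip5k1b (0.41). Loxl1 had Rcn3 (0.20), Mmp23 (0.24) and Ptk2b (0.25), Emilin1 had Nav1 (0.17), Tshz3 and Rap1b (0.18 each), Mfap5 had Sec24d, Fam114a1 (0.24 each) and Myo9b (0.26), and Ltbp4 had Pgr, Bmp6 (0.29 each) and Bend7 (0.30). Mean Pgr was 4.78 to 5.25 over the 4 tissues, below every array's median, so dim signal limits that neighbour. Ptprz1 was dim outside the aortas, with means of 3.73 to 4.39. Among the members themselves, Loxl1 and Mfap5 were closest (0.30), and Lox and Ltbp4 (1.82) and Eln and Lox (1.73) farthest apart. Within the 7 tumors alone the same measure was 0.21 for Loxl1 and Mfap5, 1.68 for Lox and Ltbp4 and 1.55 for Eln and Lox. These distances are a description over arrays that share the tissue groups. They also scale with each gene's spread over the arrays (SD 0.54 for Ltbp4 and 1.65 for Lox).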

How the data were processed

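RNA of 19 samples was hybridised to Affymetrix arrays. The deposited table was taken to hold log2 intensities, from its range (1.6 to 13.8, array medians 5.3 to 5.5). The submitters' processing notes name Partek 6.6, without its role, and the normalization was not stated. Of 41345 probe sets, 23521 carried 1 symbol. For each gene the one with the highest mean was kept, leaving 22180 genes. One mean per tissue was estimated from the 19 arrays together (limma 3.58.1, R 4.3.3, two-sided), with Benjamini-Hochberg adjustment over all genes and a threshold of 0.05. Muscle is the mean of both muscle groups. The fit was tested on simulated data. The members, lists and alternatives were chosen with earlier results of these data known, and the Loxl3, Mfap2 and Fbln1 alternatives after seeing their values. The genes named are all members, the 3 largest called changes per list and tumor comparison, those 3 paralogs, and the 3 nearest genes. The inhibitors Timp2, Timp3 and Cst3 were named after their values were seen. Alternatives covered scaling, probe choice, dim genes, fit options, samples left out, compared groups alone and stricter thresholds. The number of arrays limits precision.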

Additional observations from a re-analysis of the deposited data

Results flagged for a closer look

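Among 32 groups of values (8 genes in 4 tissues), 3 held a sample whose gap to its nearest neighbour was large for the group's range; chance flags about 1 in 20. Ltbp4 in tumor 6 (10.5, next 9.0) had a gap of 0.609 of the tumor range. Mfap5 in aorta 4 (9.36, next 10.1) had a gap of 0.837 of the aorta range. Fbln5 in quadriceps femoris 3 (6.88, next 7.29) had a gap of 0.88 of that muscle's range.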

How the results depend on the processing

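No member reversed a called direction under any alternative run. Ltbp4 against muscle, never past the threshold, turned from 0.06 to -0.35 with housekeeping centring, -0.17 with tumors 1 to 4 alone, -0.10 against sternocleidomastoid alone, and spanned -0.19 to 0.21 with single arrays left out. Housekeeping centring moved the median of all genes to -0.21 (tumor minus aorta), -0.45 (tumor minus muscle) and -0.22 (aorta minus muscle). Members higher in tumor than in aorta numbered 3, and 1 at an adjusted p under 0.01 (1 to 3 with single arrays left out). Members lower numbered 2, with 4 under housekeeping centring and 1 without aortas 1 and 3 (2 to 3). Lox alone (1) was lower in sternocleidomastoid with the 2 muscles only. Assembly genes higher in tumor than in aorta numbered 12, with 7 for tumors 5 to 7 alone, 6 without aortas 1 and 3, 7 at an adjusted p under 0.01 and 7 at 2-fold (7 to 13), and those lower 6, with 2 at 2-fold (4 to 6). Assembly genes lower than muscle numbered 2 in tumor (4 housekeeping, 1 at 2-fold) and 1 in aorta (2 housekeeping, 2 with compared groups only, 0 at 2-fold). In the list of proteases and inhibitors, genes lower in tumor than in aorta numbered 1, the inhibitor Cst3. They numbered 3 under housekeeping centring, 0 under quantile normalization, 2 for tumors 1 to 4 and 0 for tumors 5 to 7. Without tumors 2 and 5 they numbered 2, and at 2-fold 0 (1 to 2 with single arrays left out). Genes of that list higher in tumor than in muscle, proteases and inhibitors together, numbered 11 (6 at 2-fold). Those lower numbered 1, with 2 under median centring, 4 housekeeping, 0 quantile, 2 with the mean over probe sets, 0 for tumors 5 to 7 and 0 at 2-fold (1 to 2). Genes of that list higher in aorta than in muscle numbered 3. They numbered 6 for tumors 1 to 4, 7 with compared groups only and 1 at 2-fold (3 to 5). The cause of these changes was not tested. No paired analysis was possible because the sources used here do not say which samples came from the same animal.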
